A study of Mus musculus with 8 samples.

Results

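Imprinted genes are genes of which one parental copy is silenced by a methylation mark set in the egg or the sperm. The 46 described here lie outside the Dlk1-Dio3 locus and were taken by gene symbol from the deposited count table, where all 46 have a row among 24527 rows. They are a list of names drawn from what is known of imprinting, chosen with earlier results of these data known. They cover 11 chromosomes, with 18 genes on chromosome 7. The table holds hippocampal RNA of 8 male wild-type C57BL/6J mice aged 20 weeks. In the BPA group (n = 4), the mothers were fed chow low in phytoestrogens to which BPA had been added at 50 mg per kg, through pregnancy and lactation. BPA, bisphenol A, is a building block of plastics with weak hormone-like activity. In the control group (n = 4), the mothers were fed the same chow with 0 mg. All pups were moved to the control diet at weaning on postnatal day 21, so the comparison asks which adult transcript levels differ long after the exposure ended. Each mouse gave 1 library of polyadenylated RNA. No source used here says whether mice of a group were from different litters, so that p-values measure only the spread between these samples.

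Imprinted genes sit in clusters, each governed by a control region that carries the parental methylation mark. Many of the noncoding RNAs among them, such as Kcnq1ot1 and Airn, are transcribed from the paternal copy and silence neighbours in cis. Several imprinted genes act on growth: Igf2 encodes a fetal growth factor, Igf2r the receptor that clears it, Grb10 an adaptor that dampens insulin signalling, and Cdkn1c a cell cycle inhibitor. Others are known for neurons, among them Ube3a, whose maternal copy alone is active in neurons and whose loss causes Angelman syndrome in humans, and Ndn, Magel2 and Snrpn, paternal genes of the human Prader-Willi region. The members were grouped by cluster, 21 in all, and by the parental copy known from mouse literature to be expressed: 24 paternal, 18 maternal and 4 of mixed or unsettled origin (Gnas, Grb10, Inpp5f and Cdh15). For some, such as Ppp1r9a, Copg2, Trappc9, Igf2r and Blcap, the imprint is known to depend on the tissue. These names are examples and not a full list. No class, that of Igf2 included, was checked in hippocampus or in the tissue next to it. The counts add up reads of both copies of a gene, so no value below tells the copies apart.

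The windows before the transcription starts show what neighbours share. RefSeq (GRCm38.p6) held windows for 36 of the 46 members. Peg3 and Usp29, both paternal, start 164 bases apart in RefSeq and run in opposite directions, so that a single stretch of 163 bases lies upstream of both. It is shown on the plus strand (chr7:6730420-6730582), the direction of Usp29, with its 5 CpG dinucleotides, the bases that carry methylation, in capitals.
Peg3-Usp29: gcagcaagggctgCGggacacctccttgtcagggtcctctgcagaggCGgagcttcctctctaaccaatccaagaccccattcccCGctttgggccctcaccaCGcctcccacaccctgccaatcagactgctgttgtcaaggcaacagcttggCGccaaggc
Snrpn and Snurf share a start in RefSeq, where Snrpn also has other starts. The 250 bases before the shared start (chr7:60005200-60005449, minus strand) are the same for both. This stretch is shown because the pair shares exon bases and how reads in them were counted is not known. Its 3 CpG dinucleotides are in capitals.
Snrpn-Snurf: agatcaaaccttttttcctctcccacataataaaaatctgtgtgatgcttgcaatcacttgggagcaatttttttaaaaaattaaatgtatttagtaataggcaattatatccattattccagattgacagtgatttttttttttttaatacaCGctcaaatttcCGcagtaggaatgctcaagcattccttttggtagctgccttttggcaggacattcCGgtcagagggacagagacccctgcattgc
The hexamer TGCCGC, recognised in its methylated form by the imprint-keeping zinc finger protein ZFP57, was searched on both strands, the reverse strand as GCGGCA, in the 250 bases before each start. It was present in windows of 7 of the 36 members, or in 8 of 54 member windows (14.8%), against 8.68% of all 32851 windows. Of the 7, 4 were paternal (Zdbf2, Mest, Nap1l5 and Plagl1) and 3 maternal (Calcr, Copg2 and Zim1). A match is a description of letters and not a binding site. Some windows overlap, within a gene as for Mest and Gnas, or between neighbours as for Peg3 and Usp29, so the windows are not independent. Nap1l5 (chr6:58907127-58907376, minus strand) and Mest (chr6:30737800-30738049, plus strand) are shown because each starts at a promoter that is known to be methylated on the maternal copy, with the hexamer in capitals.
Nap1l5: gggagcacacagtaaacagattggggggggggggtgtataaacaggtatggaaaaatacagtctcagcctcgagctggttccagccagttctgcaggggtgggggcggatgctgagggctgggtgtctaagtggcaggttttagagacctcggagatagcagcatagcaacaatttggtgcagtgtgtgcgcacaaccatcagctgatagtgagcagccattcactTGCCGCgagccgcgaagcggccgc
Mest: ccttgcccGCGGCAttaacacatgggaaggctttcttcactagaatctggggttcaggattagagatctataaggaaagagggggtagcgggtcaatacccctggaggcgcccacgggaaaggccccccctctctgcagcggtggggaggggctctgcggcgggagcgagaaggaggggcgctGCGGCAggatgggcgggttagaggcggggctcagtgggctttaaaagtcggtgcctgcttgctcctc

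The libraries held 43119986 to 54013884 counts in BPA mice and 27135071 to 40793192 counts in controls. Every BPA library was deeper than every control library, so exposure and depth cannot be told apart. Markers of hippocampal neurons were present in every library, 13 of 13, with a summed level of 4916 to 5157 CPM in BPA mice and 4878 to 5798 CPM in controls (CPM, counts scaled to library size with TMM, a correction for composition). Snap25 alone was at 2983 to 3209 CPM in BPA mice and 3046 to 3813 CPM in controls, so the sum says little of the other markers. Markers of tissue next to the hippocampus varied between libraries. The summed level of 15 choroid plexus markers ran from 47.5 to 521 CPM in BPA mice and from 78.4 to 2111 CPM in controls, with BPA replicate 3 and control replicate 2 highest in their groups. All 15 had a lower mean log2 level in BPA mice, and edgeR called 0 of them. Their mean log2 CPM was 1.67, -0.23, 2.92 and 0.82 in the BPA libraries and 1.2, 4.63, 0.52 and 1.27 in the control libraries. Control replicate 2 thus weighed heavily on this shared direction. For 12 meningeal and fibroblast markers it was 91.3 to 179 CPM in BPA mice and 76.8 to 134 CPM in controls. It was 12.1 to 21.9 CPM in BPA mice and 15.9 to 33.3 CPM in controls for 8 ependymal markers, and 367 to 407 CPM in BPA mice and 379 to 429 CPM in controls for 12 markers of vessels. All 7 tested ependymal markers were lower in BPA mice, with a median log2 fold change of -0.514, and edgeR called 0 of them. Control replicate 2 was also highest for this list. Of the meningeal and fibroblast markers 9 were higher and 3 lower, and of the vessel markers 6 were higher and 6 lower. No marker of these lists was at 0 in any library. In whole tissue, fewer cells of a type and less RNA per cell cannot be told apart.

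Of the 46 members, 45 had at least 1 read and 39 had enough for a test. No member passed the test. EdgeR's quasi-likelihood test with Benjamini-Hochberg adjustment, fitted to all 15434 genes with enough reads, called 0 of 39 at an adjusted p of 0.05 (adjusted p 0.955 to 0.996), against 0% of all genes. DESeq2, which leaves genes of low counts without an adjusted p, gave one to 4660 genes and called 6 of them (0.129%). It gave one to 22 of the 39 members and called 0 of these, while 17, Kcnq1ot1 among them, had none. Over all genes tested, 2 of 39 members and 3.8% of all genes had an unadjusted DESeq2 p under 0.05. At an unadjusted edgeR p under 0.05 there were 3 of 39 members, Ndn and Nnat higher and Kcnq1ot1 lower in BPA mice, a share of 7.69% beside 4.52% of all genes (2.22% higher and 2.3% lower). Nothing is read from that difference of about 1 gene. Without BPA replicate 1, BPA replicate 2 or control replicate 2, the number of members at that level was 0. For 0 of 39 did the ranges of BPA and control libraries separate, against 2.79% of all genes (1.37% with BPA mice higher and 1.43% with BPA mice lower). The members' median log2 fold change (BPA over control) was 0.013, with 22 higher and 17 lower, beside a median of 0.00 with 7723 higher and 7711 lower over all genes.

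The differences were small and most were measured tightly. Of the 39 tested members, 32 (82.1%) differed by less than 1.1-fold in either direction, as did 81.5% of all genes. For 31 members (79.5%), a 1.5-fold change either way was outside the 95% interval, as it was for 85.4% of all genes. The 8 with a wider interval were Igf2, Peg10, Ndn, Mkrn3, Cdkn1c, Kcnq1, Slc22a3 and Cdh15. By parental copy, the 21 tested paternal genes had a median log2 fold change of 0.041 (14 higher, 7 lower), the 14 maternal genes 0.0020 (7 higher, 7 lower) and the 4 others -0.018 (1 higher, 3 lower). No test of a difference between the parental classes was made. All 3 members with an unadjusted p under 0.05 were paternal.

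**Figure D1:**
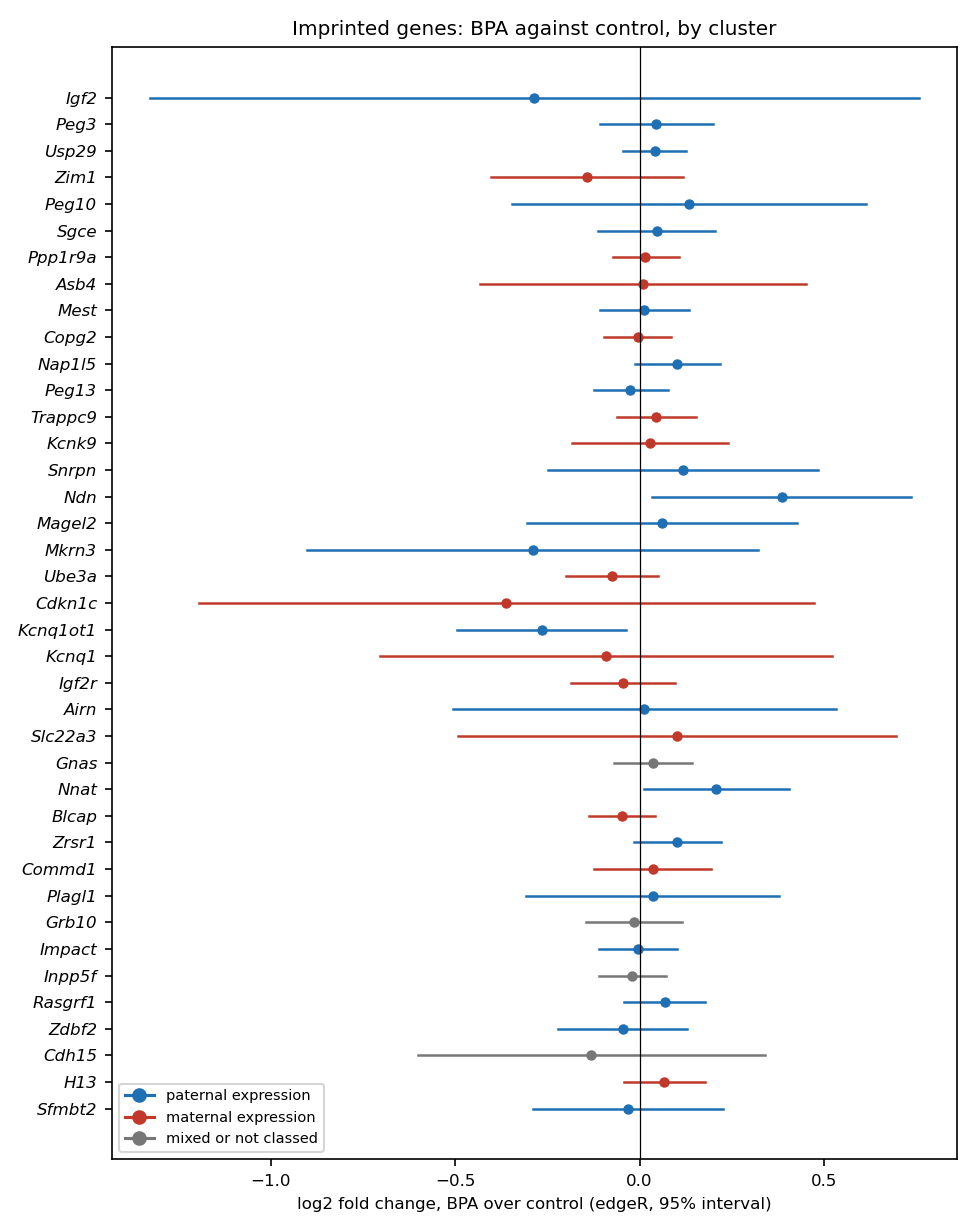
Log2 fold change (x axis, BPA over control) of the 39 tested imprinted genes, ordered by cluster, with the 95% interval of the edgeR fit as a line and the expressed parental copy as colour. Intervals of all but 3 genes (Ndn, Nnat and Kcnq1ot1) cross 0, and the widest belong to Igf2 and Cdkn1c.

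Levels per exon length spanned more than 4 orders of magnitude. Lengths are the merged exons of GENCODE release M21, which are not the refGene models used for counting. Nnat, which encodes the small membrane protein neuronatin, was highest at 200.1 CPM per kb of exon over the 8 libraries, followed by Nap1l5, a nucleosome assembly protein relative, at 134, Gnas at 72.3, the noncoding RNA Peg13 at 67.9 and Rasgrf1 at 56.1. Of the 10 highest, 8 were paternal genes, Gnas was of mixed origin and Ppp1r9a was maternal. In all, 14 members lay above 10 CPM per kb and 9 lay below 0.1 CPM per kb. The low end held 7 genes too low to test, H19, Peg12, Slc22a18, Nespas, Calcr, Phlda2 and Snurf, and also Kcnq1 at 0.0739 and Slc22a3 at 0.0808 CPM per kb.

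**Figure D2:**
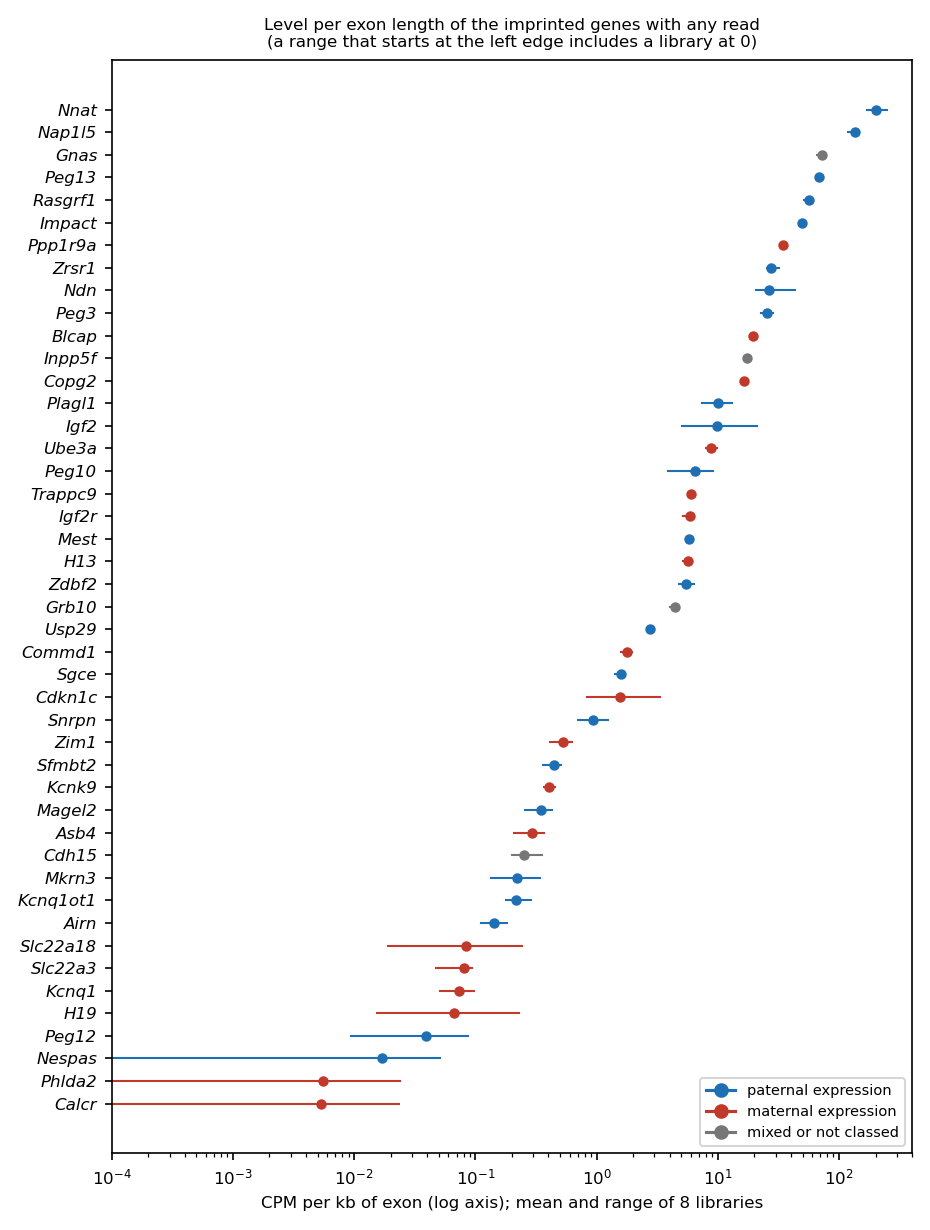
Mean level per kb of exon (x axis, log scale) of the 45 imprinted genes with any read, with the range over the 8 libraries as a line and the expressed parental copy as colour. Nnat and Nap1l5 are highest, and Calcr and Phlda2 are lowest.

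In the cluster of Snrpn and Ube3a on chromosome 7, homologous to the human Prader-Willi and Angelman region, Ndn stood apart. Ndn (chromosome 7, 62346569 to 62350262) encodes necdin, a MAGE-family protein of neurons that have left the cell cycle. It was at 108, 161, 85.8 and 87.0 CPM in the BPA libraries, against 87.8, 76.8, 84.6 and 89.2 CPM in the control libraries. BPA replicate 2 was the highest of all libraries and BPA replicate 1 the second highest, while BPA replicates 3 and 4 lay within the control range. Ndn averaged 110.3 ± 35.2 CPM in BPA mice and 84.6 ± 5.52 CPM in controls (SD, n = 4 each), a log2 fold change of 0.385 ± 0.161 (SE) with an edgeR adjusted p of 0.955. Without BPA replicate 2 the log2 fold change was 0.145, and it was 0.060 once log2 library total entered the fit. BPA replicate 2 was also the deepest library. Here and for the genes below, a fit with library total cannot separate depth from exposure, as every BPA library was deeper.

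The neighbours of Ndn were not highest in BPA replicate 2. Magel2, a paralog that regulates protein recycling from endosomes, was at 1.97, 1.64, 1.199 and 1.77 CPM in BPA mice and 1.43, 1.65, 1.74 and 1.49 CPM in controls, so that BPA replicate 2 lay inside the control range. BPA replicate 1 was highest. Mkrn3, a ring finger gene linked to the timing of puberty in humans, had 18, 30, 15 and 30 reads in the BPA libraries and 18, 21, 27 and 16 in the control libraries (log2 fold change -0.290 ± 0.281). In CPM, Mkrn3 was highest in control replicate 3. Peg12 had 2 to 10 reads per BPA library and 1 to 5 per control library, with BPA replicate 3 highest, and was not tested. Summed markers of hypothalamus, a tissue known to express Ndn and Magel2, were at 1.36 to 1.77 CPM in BPA mice and 1.52 to 2.21 CPM in controls, with between 1 and 5 of 11 markers at 0 in a library. BPA replicate 2 had 1.77 CPM, the highest of the BPA libraries and below control replicate 2.

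Ube3a (chromosome 7, 59228750 to 59311536), the ubiquitin ligase of this cluster, is transcribed from the maternal copy in neurons. It was at 163, 173, 179 and 186 CPM in the BPA libraries, against 184, 180.3, 172 and 203 CPM in the control libraries. The groups overlapped, and the log2 fold change was -0.075 ± 0.057, with a 95% interval of the fold of 0.871 to 1.03. Snrpn, which encodes a splicing protein and is known as abundant in brain, had only 91, 90, 88 and 116 reads in the BPA libraries and 78, 77, 68 and 40 in the control libraries (log2 fold change 0.118 ± 0.168). Snurf, read from the same start as Snrpn, had 0 reads in all 8 libraries, which allows up to 0.00937 CPM over all 8 libraries together (3 counts, counting error only). All 216 exon bases of Snurf are also exon bases of Snrpn in GENCODE. The sources used here do not say how reads in shared bases were counted, so their counts may not reflect the level of the shared transcript.

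Nnat and Blcap form a small cluster on chromosome 2, with Nnat inside an intron of Blcap. Nnat (chromosome 2, 157560078 to 157562522) was at 393, 403, 321 and 453 CPM in the BPA libraries, against 353, 323, 373 and 309.9 CPM in the control libraries. Of the BPA libraries, 3 lay above every control library and BPA replicate 3 lay near the bottom of the control range. The log2 fold change was 0.208 ± 0.090 (edgeR adjusted p 0.955), and 0.132 without BPA replicate 4 or 0.122 with log2 library total as a covariate. Blcap, which encodes a small protein first described in bladder cancer, was at 58.2, 56.6, 56.5 and 60.8 CPM in the BPA libraries, against 59.8, 59.6, 60.6 and 59.9 CPM in the control libraries, a log2 fold change of -0.047 ± 0.041. The control libraries of Blcap lay between 59.6 and 60.6 CPM, and the BPA libraries lay on both sides of them. Per kb of exon, Nnat was 9.46 to 12.4 times as abundant as Blcap in BPA libraries and 8.61 to 10.2 times in control libraries.

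In the Kcnq1 cluster of distal chromosome 7, the noncoding RNA that silences neighbours in cis was the tested member with the smallest p. Kcnq1ot1 (chromosome 7, 143203458 to 143296549) was at 16.7, 18.3, 17.7 and 20.9 CPM in the BPA libraries, against 23.2, 26.7, 19.2 and 18.9 CPM in the control libraries. Control replicates 1 and 2 lay above all BPA libraries, and control replicates 3 and 4 lay among them. The log2 fold change was -0.265 ± 0.106 (edgeR unadjusted p 0.0269, adjusted p 0.955), -0.160 without control replicate 2 and -0.494 in the fit that held log2 library total. Choroid plexus markers were also highest in control replicate 2. The log2 fold change was -0.220 with their score as a covariate and -0.145 without BPA replicate 3 and control replicate 2 together. Their part in this value was not tested beyond these fits. Kcnq1, the potassium channel gene that hosts this RNA on the opposite strand, had only 9 to 18 reads per BPA library and 6 to 15 per control library (log2 fold change -0.091 ± 0.281). Slc22a18, a transporter gene, had 7, 3, 18 and 5 reads in BPA libraries and 6, 5, 1 and 2 in control libraries, with BPA replicate 3 highest. Phlda2, a growth-restraining gene of placenta, had 2 reads over all libraries.

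**Figure D3:**
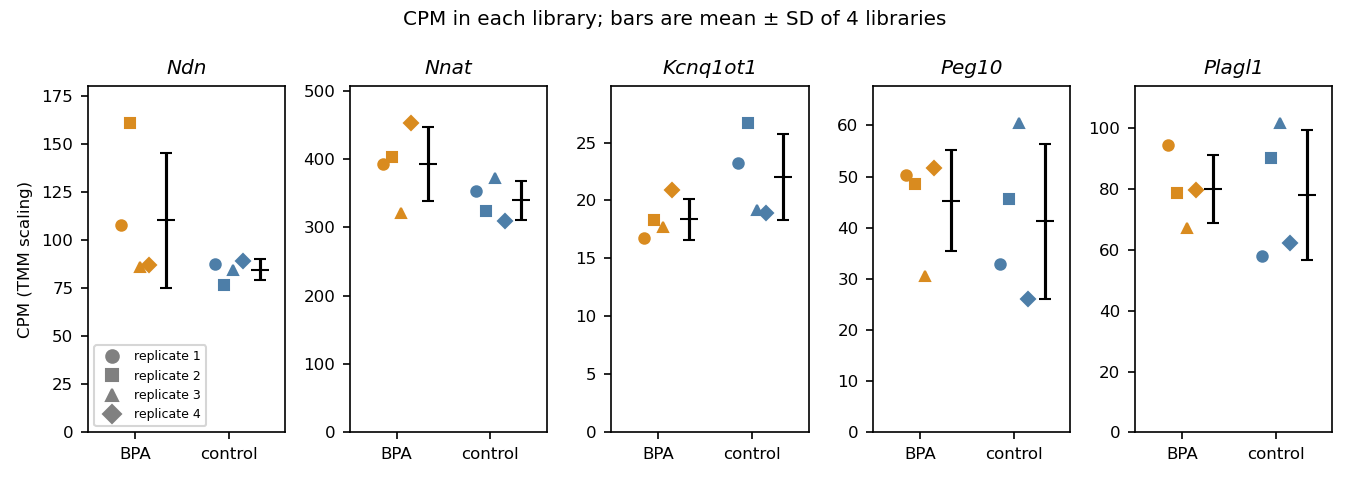
CPM of Ndn, Nnat, Kcnq1ot1, Peg10 and Plagl1 (y axis, from 0) in each BPA and control library, with the symbol giving the replicate and the bar the mean ± SD of 4 libraries. The groups overlap for all 5 genes, and Ndn is highest in BPA replicate 2 at 161 CPM.

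Igf2 and Cdkn1c varied most among the members, and both were highest in libraries with high markers of neighbouring tissue. Igf2 (chromosome 7, 142650766 to 142666816), which the choroid plexus and meninges of adult brain are known to express, was at 30.5, 29.1, 111 and 34.0 CPM in the BPA libraries, against 64.5, 119, 30.0 and 32.4 CPM in the control libraries. It was high in BPA replicate 3, control replicate 2 and, less so, control replicate 1, and between 29.1 and 34.0 CPM in the others, so the groups overlapped. The mean log2 CPM of the 12 meningeal and fibroblast markers was 3.51 in BPA replicate 3, 2.91 in control replicate 1 and 2.84 in control replicate 2, and at most 2.05 in the other 5 libraries. That of the 15 choroid plexus markers was 2.92 in BPA replicate 3 and 4.63 in control replicate 2, and at most 1.67 in the other 6. The log2 fold change of Igf2 was -0.285 ± 0.479, 0.255 without control replicate 2, -0.995 without BPA replicate 3 and -0.457 without both. Their part in the result beyond these values was not tested.

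Cdkn1c (chromosome 7, 143458339 to 143461050), maternally expressed and in the Kcnq1 cluster, was at 2.91, 1.70, 4.68 and 2.05 CPM in the BPA libraries, against 3.31, 6.79, 1.81 and 2.36 CPM in the control libraries. Its highest BPA library was replicate 3 and its highest control library replicate 2, as for Igf2. The log2 fold change was -0.361 ± 0.384, 0.156 without control replicate 2 and -0.202 without both libraries. With the choroid plexus score as a covariate, the log2 fold change was -0.009 for Cdkn1c and 0.025 for Igf2. H19, the maternal noncoding RNA beside Igf2, had 2, 7, 5 and 10 reads in BPA libraries and 3, 21, 4 and 1 in control libraries and was not tested. Its highest library was again control replicate 2, although BPA replicate 3 was not high. The genes whose log2 CPM was most like that of Igf2 over the 8 libraries were Gypc (Pearson's r 0.989), Lepr (0.982), Flna (0.98), Heg1 (0.977) and Cp (0.977), given as a description with no test. All 5 were highest in the same 3 libraries as Igf2. Cdkn1c was the 57th of all tested genes by this measure, with r 0.927. Cp encodes ceruloplasmin, a copper carrier, and was at 13.6, 14.4, 27.5 and 14.7 CPM in BPA libraries and 18.9, 24.2, 14.0 and 13.1 CPM in control libraries.

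**Figure D4:**
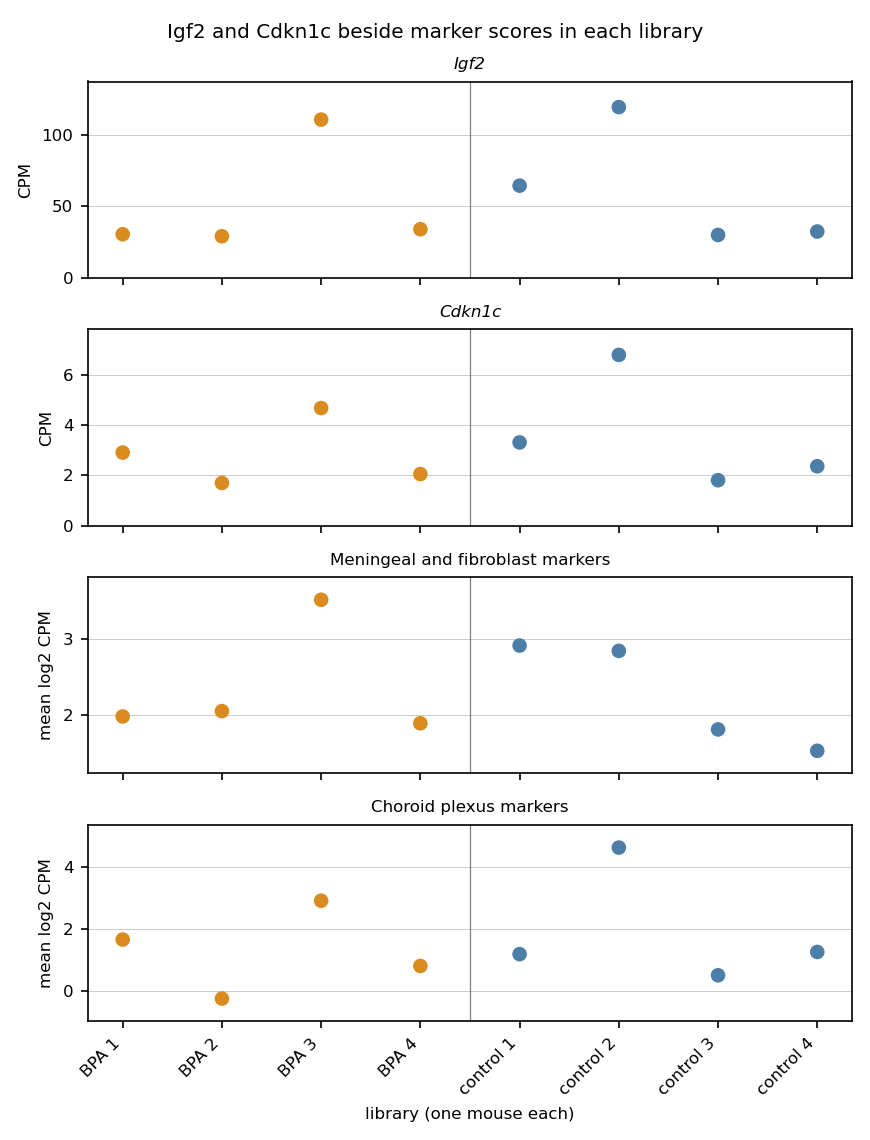
Igf2 and Cdkn1c (CPM, y axes from 0) and the mean log2 CPM of meningeal and choroid plexus markers in each of the 8 libraries, BPA in orange and control in blue. The 3 libraries with Igf2 above 60 CPM are also the 3 with the highest meningeal score.

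Around the receptor for that growth factor, Igf2r (chromosome 17, 12682406 to 12769664) was at 51.0, 56.3, 51.2 and 55.8 CPM in the BPA libraries, against 58.4, 58.8, 55.5 and 48.1 CPM in the control libraries. The groups overlapped, with a log2 fold change of -0.045 ± 0.065. Airn, the noncoding RNA that crosses the Igf2r promoter, had 19 to 35 reads per BPA library and 11 to 25 per control library (log2 fold change 0.013 ± 0.239). Per kb of exon, Igf2r was 33.3 to 49.2 times as abundant as Airn in BPA libraries and 35.0 to 56.8 times in control libraries. Slc22a3, an organic cation transporter gene, had 16 to 18 reads per BPA library and 8 to 16 per control library. Grb10 (chromosome 11, 11930508 to 12038683), known to be expressed from the paternal copy in neurons and the maternal copy elsewhere, was at 37.0, 38.6, 43.8 and 41.3 CPM in the BPA libraries, against 38.4, 42.4, 42.2 and 39.5 CPM in the control libraries, a log2 fold change of -0.016 ± 0.060.

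Peg10 and Plagl1, both paternal and on different chromosomes, varied between mice more than most genes, at percentiles 95.4 and 89.1 of the SD of log2 CPM within groups over all tested genes. Peg10 (chromosome 6, 4747306 to 4760517), derived from a retrotransposon, was at 50.3, 48.4, 30.6 and 51.6 CPM in the BPA libraries, against 32.8, 45.6, 60.4 and 26.0 CPM in the control libraries. Plagl1 (chromosome 10, 13060504 to 13131694), a zinc finger transcription factor that regulates other imprinted genes, was at 94.4, 78.6, 67.3 and 79.6 CPM in the BPA libraries, against 57.9, 90.2, 102 and 62.3 CPM in the control libraries. Both were highest in control replicate 3, lowest of the BPA mice in BPA replicate 3, and low in control replicates 1 and 4. The pair was picked after their values were seen. Their log2 fold changes were 0.133 ± 0.220 and 0.035 ± 0.158. For Peg10 it was 0.372 without control replicate 3 and -0.027 without control replicate 4, and for Plagl1 it was 0.188 without control replicate 3 and -0.086 without control replicate 1. Of the 13 markers of hippocampal neurons, 3 had their lowest values in control replicates 1 and 4. These were Prox1, Dsp and C1ql2, known markers of dentate granule cells. Prox1 was at 121, 127, 117 and 127 CPM in the BPA libraries, against 85.0, 131, 131 and 87.1 CPM in the control libraries. C1ql2 was at 77.9, 81.7, 65.6 and 82.9 CPM in the BPA libraries, against 52.1, 72.8, 89.5 and 47.2 CPM in the control libraries, again highest in control replicate 3. Dsp was at 108, 119, 125 and 114 CPM in the BPA libraries, against 72.0, 121, 121 and 90.1 CPM in the control libraries. These markers too were picked after their values were seen, and their part in the values of Peg10 and Plagl1 was not tested.

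The other tested genes beside Peg10 varied less. Sgce, epsilon-sarcoglycan, whose loss causes myoclonus-dystonia in humans, starts next to Peg10 and was at 18.1, 18.3, 15.1 and 16.9 CPM in the BPA libraries, against 16.3, 15.3, 17.8 and 17.1 CPM in the control libraries (log2 fold change 0.046 ± 0.073). Ppp1r9a, which encodes neurabin, an actin-binding partner of protein phosphatase in dendritic spines, was at 497, 521, 502 and 512 CPM in the BPA libraries, against 492, 486, 511 and 519 CPM in the control libraries (log2 fold change 0.016 ± 0.041). All 8 libraries of Ppp1r9a lay between 486 and 521 CPM. Asb4, an adaptor of a ubiquitin ligase, had 44 to 57 reads per BPA library and 26 to 45 per control library. Calcr, the calcitonin receptor, had 7 reads in all.

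Peg3 and Usp29 differed in spread although they start beside the stretch printed above. Peg3 (chromosome 7, 6703892 to 6730431), a zinc finger gene known from maternal behaviour in mice, was at 329.8, 379.6, 318 and 346 CPM in the BPA libraries, against 361, 315, 355 and 300.1 CPM in the control libraries (log2 fold change 0.045 ± 0.070). Usp29 (chromosome 7, 6730578 to 6967219), a deubiquitinase gene, was at 50.9, 51.3, 49.4 and 49.5 CPM in the BPA libraries, against 48.9, 49.8, 48.5 and 48.4 CPM in the control libraries (log2 fold change 0.041 ± 0.040). The SD of log2 CPM within groups was 0.0235 for Usp29, the lowest of all 39 tested members, and 0.121 for Peg3, against a median of 0.108 over all genes. Zim1, a maternal zinc finger gene next to Peg3, was at 3.91, 4.80, 3.37 and 4.17 CPM in BPA mice and 4.25, 5.04, 4.33 and 4.34 CPM in controls (log2 fold change -0.143 ± 0.120). Control replicate 2 was its highest library.

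In the Peg13 cluster of chromosome 15, the noncoding RNA and its host were among the steadier genes, at percentiles 10.8 and 15.9 of the SD within groups. Peg13 (chromosome 15, 72805600 to 72810324), a noncoding RNA inside an intron of Trappc9, was at 312, 317, 319.8 and 323 CPM in the BPA libraries, against 341, 309, 334 and 309 CPM in the control libraries (log2 fold change -0.025 ± 0.046). Trappc9, a vesicle trafficking gene whose loss causes microcephaly in humans, was at 47.7, 51.4, 45.8 and 47.9 CPM in the BPA libraries, against 44.9, 47.9, 45.6 and 48.5 CPM in the control libraries (log2 fold change 0.045 ± 0.049). Kcnk9, a leak potassium channel gene expressed from the maternal copy in brain, was at 5.23, 5.23, 4.66 and 5.02 CPM in BPA mice and 5.61, 4.61, 4.52 and 4.99 CPM in controls (log2 fold change 0.028 ± 0.098). Per kb of exon, Peg13 was 10.4 to 11.7 times as abundant as its host in BPA libraries and 10.7 to 12.8 times in control libraries.

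Nap1l5 and Zrsr1 are paternal retrogenes inside introns of other genes, and neither passed the test. Nap1l5 (chromosome 6, 58905233 to 58907076) was at 255, 257, 246 and 268 CPM in the BPA libraries, against 255, 234, 219.6 and 247 CPM in the control libraries, a log2 fold change of 0.102 ± 0.053. Zrsr1 (chromosome 11, 22972005 to 22976496), a splicing factor relative inside an intron of Commd1, was at 126, 143, 122 and 123 CPM in the BPA libraries, against 122, 118, 124 and 115 CPM in the control libraries, a log2 fold change of 0.102 ± 0.054 that was -0.009 with log2 library total as a covariate. The groups overlapped for both genes. Commd1, a regulator of copper balance, was at 11.6, 10.8, 9.45 and 10.6 CPM in the BPA libraries, against 10.1, 10.8, 10.3 and 10.3 CPM in the control libraries (log2 fold change 0.036 ± 0.073). Mest, an enzyme relative whose promoter is printed above, was at 22.3, 24.5, 23.0 and 22.4 CPM in the BPA libraries, against 21.7, 22.7, 24.6 and 22.6 CPM in the control libraries (log2 fold change 0.012 ± 0.055). Copg2, a coat protein gene of Golgi vesicles whose end overlaps Mest, was at 80.8, 85.2, 86.7 and 86.5 CPM in the BPA libraries, against 85.6, 83.9, 82.8 and 88.2 CPM in the control libraries (log2 fold change -0.005 ± 0.042).

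Among members with a part in signalling, none passed the test and the groups of each overlapped. Gnas (chromosome 2, 174284320 to 174346744), which encodes the stimulatory G protein alpha subunit among other products, was at 853, 825, 798 and 801 CPM in the BPA libraries, against 811, 732, 849.9 and 803 CPM in the control libraries (log2 fold change 0.036 ± 0.049, 95% interval of the fold 0.952 to 1.104). Its antisense RNA Nespas had 2, 0, 1 and 1 reads in BPA libraries and 3, 1, 5 and 2 in control libraries. Rasgrf1 (chromosome 9, 89909908 to 90026977), a calcium-responsive activator of Ras in neurons, was at 629, 679, 634 and 598 CPM in the BPA libraries, against 601, 568, 632 and 622 CPM in the control libraries (log2 fold change 0.068 ± 0.051). Impact, an inhibitor of the amino acid sensor GCN2, was at 247, 253, 248 and 271 CPM in the BPA libraries, against 260.4, 252, 243 and 266 CPM in the control libraries (log2 fold change -0.004 ± 0.048). Inpp5f, a phosphoinositide phosphatase with a paternal isoform in brain, was at 143, 143, 149 and 139.7 CPM in the BPA libraries, against 147, 140.3, 145 and 152 CPM in the control libraries (log2 fold change -0.020 ± 0.042).

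The remaining members were single imprinted genes. Zdbf2 (chromosome 1, 63273265 to 63314576), a zinc finger gene linked to feeding of newborn mice, was at 65.3, 73.7, 60.4 and 70.7 CPM in the BPA libraries, against 80.0, 62.7, 71.7 and 64.2 CPM in the control libraries (log2 fold change -0.046 ± 0.081). H13 (chromosome 2, 152669461 to 152708670), a signal peptide peptidase, was at 53.5, 51.4, 49.2 and 53.8 CPM in the BPA libraries, against 50.1, 51.1, 51.3 and 45.7 CPM in the control libraries (log2 fold change 0.067 ± 0.051). For both the groups overlapped. Sfmbt2, a polycomb group gene, was at 4.05 ± 0.572 CPM in BPA mice and 4.14 ± 0.306 CPM in controls (SD, n = 4 each). Cdh15, a cadherin of muscle and cerebellum, was at 0.790 ± 0.137 CPM in BPA mice and 0.852 ± 0.211 CPM in controls, with the highest value again in control replicate 2.

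**Figure D5:**
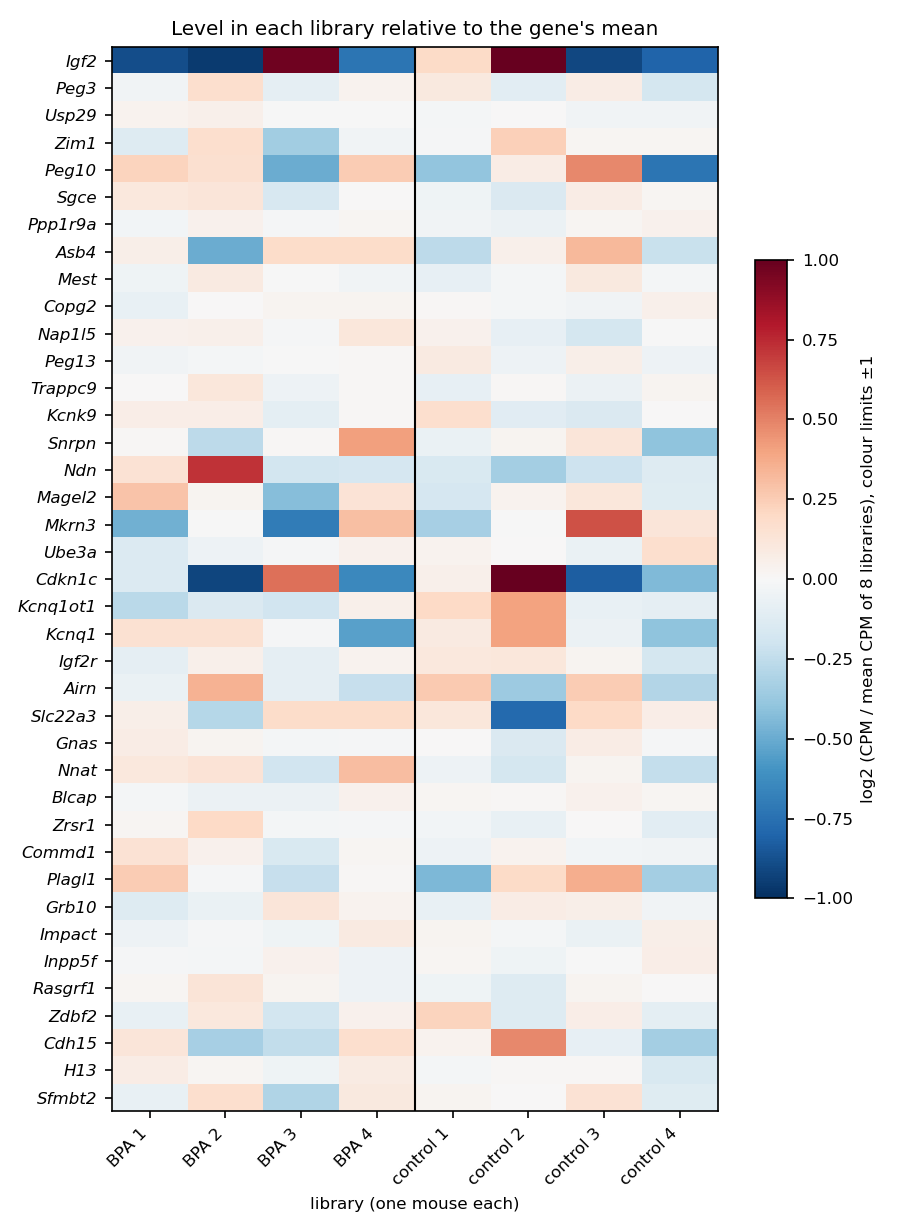
Log2 ratio of CPM to the gene's mean over 8 libraries (colour, limits ±1) for the 39 tested imprinted genes, by cluster (rows) and library (columns, BPA left and control right of the line). Igf2 and Cdkn1c are high in BPA replicate 3 and control replicate 2, Ndn is high in BPA replicate 2, and most other rows are near 0.

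Across mice of 1 group, the members spanned the range of other genes. The median SD of log2 CPM within groups was 0.113 over the 39 members and 0.108 over all genes, with 22 members above the median of all genes. Above the 90th percentile of all genes were 4 members, Igf2, Cdkn1c, Peg10 and Mkrn3. Below the 10th percentile were 5, Usp29, Blcap, Ppp1r9a, Inpp5f and Copg2.

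No gene of 3 lists of related function passed the test. Of 45 other imprinted genes, 35 were tested and edgeR called 0 (0 at an unadjusted p under 0.05), with 19 higher in BPA mice, 16 lower and a median log2 fold change of 0.025. The smallest p were those of Nap1l4, a histone chaperone gene, at 78.1 ± 4.39 CPM in BPA mice and 73.0 ± 0.933 CPM in controls (log2 fold change 0.098 ± 0.046), and Htr2a, a serotonin receptor, at 8.50 ± 0.409 CPM in BPA mice and 7.46 ± 0.885 CPM in controls (log2 fold change 0.187 ± 0.090). A list for imprint maintenance held 26 genes, with writers and erasers of DNA methylation such as Dnmt3a and Tet1 included. Of these, 24 were tested and 0 called (0 at an unadjusted p under 0.05), with 14 higher, 10 lower and a median of 0.010. Among them was Mbd3, part of a chromatin remodelling complex, at 98.2 ± 3.79 CPM in BPA mice and 92.0 ± 3.69 CPM in controls (log2 fold change 0.094 ± 0.045). Cbx5, a heterochromatin protein, was at 372 ± 16.3 CPM in BPA mice and 399.8 ± 21.9 CPM in controls (log2 fold change -0.103 ± 0.051). Of 17 genes of the insulin-like growth factor system, 14 were tested and 0 called (0 at an unadjusted p under 0.05), with 4 higher, 10 lower and a median of -0.038. Igf1r, the receptor through which IGF2 signals, was at 119 ± 6.88 CPM in BPA mice and 126 ± 4.80 CPM in controls (log2 fold change -0.088 ± 0.050), and Igf2bp2, an RNA-binding protein that binds Igf2 transcripts, at 0.198 ± 0.0570 CPM in BPA mice and 0.289 ± 0.118 CPM in controls (log2 fold change -0.607 ± 0.368).

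Exon overlaps limit some of these values. The strand setting used in counting is not known from the sources at hand, and 12 members share exon bases with a counted gene on the opposite strand: Igf2, Usp29, Mest, Copg2, Ube3a, Kcnq1ot1, Kcnq1, Slc22a3, Gnas, Nespas, Zrsr1 and Commd1. The share was largest for Nespas (31.4% of exon bases, with Gnas), Mest (23.1%, with Copg2), Copg2 (17.8%) and Usp29 (14.3%, with Zim3). Counting overlaps with any annotated gene, 19 members were affected. Without strand, reads of such partners cannot be told apart.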

How the data were processed

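Raw read counts per gene were deposited by the authors in 1 table for 8 libraries, annotated with refGene per the file headers. Per the labels' protocols, libraries were made from polyadenylated RNA with a kit that keeps strand. Trimmomatic 0.32, STAR 2.3.0e, featureCounts 1.5.0, DESeq2 and build mm10 are named in the submitters' processing notes. The strand setting and the treatment of shared bases are not given in the sources used here.

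BPA and control libraries were compared with edgeR 4.0.16 (R 4.3.3) by the quasi-likelihood test with TMM scaling on genes kept by filterByExpr, 15434 of 24527 rows (3750 had no read), with Benjamini-Hochberg adjustment over all of them and a threshold of 0.05. The biological coefficient of variation was 8.2%. DESeq2 1.42.0, other scaling and filters, depth, a replicate block and leaving out each library were alternatives. Replicates differed by more than counting noise (each pair had a chi-square of 10.2 to 24.8 per degree of freedom) and all 8 libraries were kept. CPM values used TMM scaling. Lengths and coordinates come from GENCODE release M21 (GRCm38), and promoter windows from RefSeq (GRCm38.p6).

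Values in every library are given for members at a mean of at least 10 CPM (27 members) and for lower ones with separate groups, an unadjusted p under 0.05 or a library at 3 times the median or more. For the other lists, the genes with the smallest p are named. Values of other genes were named after they were seen. The members and lists were chosen with earlier results of these data known.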

Additional observations from a re-analysis of the deposited data

Results flagged for a closer look

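In 3 of 78 gene and group combinations, 1 library lay far from the other 3 of its group by Dixon's criterion, which chance alone meets in about 1 in 20 groups. Igf2 was at 111 CPM in BPA replicate 3, against 29.1 to 34.0 CPM in the other BPA libraries. Peg10 was at 30.6 CPM in BPA replicate 3, against 48.4 to 51.6 CPM in the other BPA libraries. Zim1 was at 5.04 CPM in control replicate 2, against 4.25 to 4.34 CPM in the other control libraries. BPA replicate 3 had the highest meningeal marker score of all libraries, and control replicate 2 the highest choroid plexus score. Without these 2 libraries the log2 fold change was -0.457 for Igf2, 0.331 for Peg10 and -0.001 for Zim1. With the choroid plexus score as a covariate it was 0.025, 0.087 and -0.155. The part of the markers in these values was not tested beyond these fits.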

How the results depend on the processing

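Of 623 log2 fold changes of the 39 tested members under 16 alternatives, 66 changed sign and none was called, though DESeq2 gave 17 members no adjusted p. For 14 members no alternative changed the sign, Ndn, Nnat and Kcnq1ot1 among them. EdgeR called 0 genes under every alternative run with it, and DESeq2 called 6 of the 4660 genes to which it gave an adjusted p, none of them a member. All alternatives were planned except the omission of BPA replicate 3 and control replicate 2 together and the choroid plexus score as a covariate, which were chosen after seeing the data, as was the count at an unadjusted p under 0.05. That count ran from 354 of all genes without BPA replicate 2 to 1167 without control replicate 3. The members' median log2 fold change of 0.013 was -0.009 with libraries thinned to the smallest total and -0.001 without control replicate 4.

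With log2 library total as a covariate, the log2 fold changes that changed sign were Peg3 -0.138, Copg2 0.010, Kcnk9 -0.091, Airn -0.351, Zrsr1 -0.009, Grb10 0.035, Impact 0.007 and Inpp5f 0.020. After thinning they were Kcnk9 -0.017, Magel2 -0.065, Airn -0.088 and Asb4 -0.042, and Kcnq1 had too few reads for a value. Without BPA replicate 3 and control replicate 2 they were Kcnq1 0.048, Igf2r 0.005, Airn -0.071, Slc22a3 -0.145, Impact 0.00026, Asb4 -0.037, Cdh15 0.095 and Sfmbt2 0.043. With the choroid plexus score as a covariate they were Igf2 0.025, Airn -0.077 and Grb10 0.0005. For genes with a change of sign when 1 library was left out, the lowest and highest log2 fold changes over the 8 omissions were Copg2 -0.018 to 0.017, Magel2 -0.034 to 0.183, Commd1 -0.010 to 0.086, Plagl1 -0.086 to 0.188, Grb10 -0.061 to 0.022, Impact -0.036 to 0.015, Asb4 -0.074 to 0.152, Peg3 -0.007 to 0.086, Mest -0.019 to 0.048, Airn -0.128 to 0.127, Zdbf2 -0.094 to 0.029, Sfmbt2 -0.102 to 0.051, Snrpn -0.017 to 0.216, Kcnq1 -0.193 to 0.055, Peg13 -0.046 to 0.002, Igf2 -0.995 to 0.255, Kcnk9 -0.011 to 0.1, Cdkn1c -0.714 to 0.156, Slc22a3 -0.091 to 0.206, Gnas -0.003 to 0.068, Cdh15 -0.230 to 0.047 and Peg10 -0.027 to 0.372. The cause of these changes was not tested.

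No pairing by replicate number was seen. The correlation of deviations from the group means between same-numbered BPA and control libraries was -0.123, -0.372, -0.295 and 0.07. These 4 values cannot exclude a pairing. With a replicate block, 0 genes were called, 498 had an unadjusted p under 0.05, 1 of them a member, and the members' median log2 fold change was 0.017. Depth limits the 7 untested members and those with few reads, such as Kcnq1, Airn and Slc22a3, and all intervals rest on 4 mice a group.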
